A study of Drosophila melanogaster with 12 samples.

Results

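The 8 genes described here encode enzymes that make pyrimidine nucleotides and the building blocks of DNA, in Drosophila melanogaster S2 cells exposed to insulin or vehicle. They were chosen by gene name as r, Dhod, r-l, CTPsyn, RnrL, RnrS, dUTPase and Ts, and make up 8 of the 10287 genes in the RNA-seq count table. All 8 passed the filter on low counts, among 8683 genes tested. The open-chromatin regions described with them are the merged ATAC-seq peaks that carry a member's gene identifier, 7 of 10269 peaks.

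The study asked how closely changes in chromatin accessibility and in RNA follow each other after insulin. Its main goal was to build reporter plasmids that respond to insulin from ATAC-seq regions, and those reporters are not covered here. Serum-starved S2 cells, a male embryonic line of macrophage-like cells from the Oregon-R strain, spent 4 h with insulin or with vehicle, a HEPES buffer (25 mM, pH 8.2). The insulin dose is 10 µM in the study's methods and 10 M in the sample labels. RNA-seq and ATAC-seq, which maps DNA open to a transposase, were each performed on 3 insulin and 3 vehicle samples of this 1 cell line, and ATAC-seq used 60000 sorted cells a sample.

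The RNA-seq libraries held 7132065 to 9850342 counts in insulin-exposed cells and 8125856 to 10256535 counts in vehicle-exposed cells. In the count table the insulin libraries are the columns X4, X5 and X6, and the vehicle libraries X1, X2 and X3. The study calls its ATAC-seq samples biological replicates, but whether the RNA-seq samples came from separate cultures is not stated, so p-values cover the spread among these libraries alone, which may be technical. No 2 libraries agreed within counting noise: chi-square per degree of freedom was 21.8 to 28.4 between treatments and 2.27 to 6.83 within a treatment. All 6 of the blood cell marker genes found in the table, of 9 listed, reached 1 CPM (counts scaled to a common total) on average. For the markers CPM used library totals alone, and elsewhere library sizes were scaled by TMM. The summed level of the blood cell markers was 759 to 829 CPM in the insulin libraries and 975 to 1009 CPM in the vehicle libraries. The part of the lower blood cell sum in the members' values was not tested. None of the 3 crystal cell and 3 fat body markers was in the table. Muscle markers summed to 1.40 to 2.84 CPM after insulin against 1.46 to 2.95 CPM after vehicle, germline markers to 0.70 to 1.91 CPM against 1.75 to 3.14 CPM, lamellocyte markers to 7.90 to 9.67 CPM against 11.6 to 14.2 CPM, and neuron markers to 64.3 to 65.2 CPM against 56.6 to 65.0 CPM.

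Cells build pyrimidine rings from glutamine, bicarbonate and aspartate. The rudimentary protein (r) begins the pathway, dihydroorotate dehydrogenase (Dhod) oxidises the closed ring in the mitochondrion, and the rudimentary-like protein (r-l) turns orotate into UMP, the parent of all other pyrimidine nucleotides. CTP synthase (CTPsyn) aminates UTP to CTP, and in Drosophila cells the enzyme can assemble into filaments. Ribonucleotide reductase, made of a large catalytic subunit (RnrL) and a small radical-bearing subunit (RnrS), reduces ribonucleotides to deoxynucleotides. The dUTPase enzyme cleaves dUTP to dUMP, which keeps uracil out of DNA, and thymidylate synthase (Ts) methylates dUMP to dTMP with a folate cofactor. The deoxynucleotide enzymes are known for their link to DNA replication, and E2F factors drive many genes of that phase.

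The reference sequence at the gene starts was searched for motifs known from replication and growth genes, and matching stretches of RnrL, Ts and dUTPase are shown because the matches found were all at deoxynucleotide genes. The 300 bases from 250 before the first annotated base of each gene to 50 from it on were searched on both strands for 3 motifs. They were the E2F motif in the forms TTTCCCGC, TTTGGCGC, TTTGCCGC and TTTCGCGC, the DNA replication-related element (DRE) TATCGATA, which is its own reverse complement, and the E-box CACGTG bound by Myc and its relatives. RnrL and RnrS each held 2 E2F matches, Ts held 1, and r, Dhod, r-l, CTPsyn and dUTPase held none. Of all 13968 protein-coding promoters of the same length, 6.41% held an E2F match, 9.36% a DRE and 4.20% an E-box, and of the 7690 whose genes were tested, 7.17%, 14.7% and 4.33% did. A match is a description of letters and says nothing of binding. Each stretch below has 30 bases of the Release 6 reference (dm6) on the strand of its gene, with the match in capitals:
RnrL, 2L:10327923-10327952, minus strand: aatgactttaaTTTGGCGCctttttgtgct
RnrL, 2L:10327894-10327923, minus strand: ttgcaacaatcaaTTTGCCGCctcttgtga
Ts, 2L:2969589-2969618, minus strand: aactcgatttattttGCGGGAAAtatatac
dUTPase, 2L:11011080-11011109, plus strand: aactacaatagTATCGATAtatcgataggg
dUTPase, 2L:11011088-11011117, plus strand: tagtatcgataTATCGATAgggttgcttat
Both RnrL matches and the Ts match lie in the annotated 5′ untranslated region, beginning 2 and 33 bases after the first base of RnrL and 35 bases after that of Ts, where the match is on the opposite strand. The dUTPase matches are adjoining DREs that begin 221 and 213 bases before its first base, between its start and that of the neighbouring gene Art8. The RnrS matches, whose sequence is not printed, begin 54 and 37 bases before its first base, on opposite strands. No E-box was found in any of the 8 windows, and the windows of the UMP and CTP genes held no match to any of the 3 motifs. Sequence more than 50 bases inside a gene, with any start there, was not searched.

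The 4 enzymes of UMP and CTP synthesis all had more RNA in insulin-exposed cells, by 1.35 to 2.19 fold, whereas none of the 4 deoxynucleotide enzymes had more at the threshold used when all libraries were fitted, and Ts had less. At an FDR under 0.05 in edgeR's quasi-likelihood test, 4 members rose, 1 fell and 3 had no call; 2 were lower, Ts and RnrL, under total-count scaling and without vehicle library X1, and 5 were higher, dUTPase among them, without insulin library X4. Insulin moved much of the transcriptome: 27.0% of all 8683 genes tested were called higher and 23.1% lower, so a call was common among all genes. By size of change, r, r-l and CTPsyn stood at the 96.1st, 99.3rd and 96.6th percentile of all genes tested, Dhod at the 88.8th and Ts at the 15.0th. The median log2 fold change was 0.26 over the 8 members and -0.01 over all genes tested, and the median absolute log2 fold change over all genes was 0.20. In bulk RNA, fewer cells of a type and less RNA per cell cannot be told apart.

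**Figure D1:**
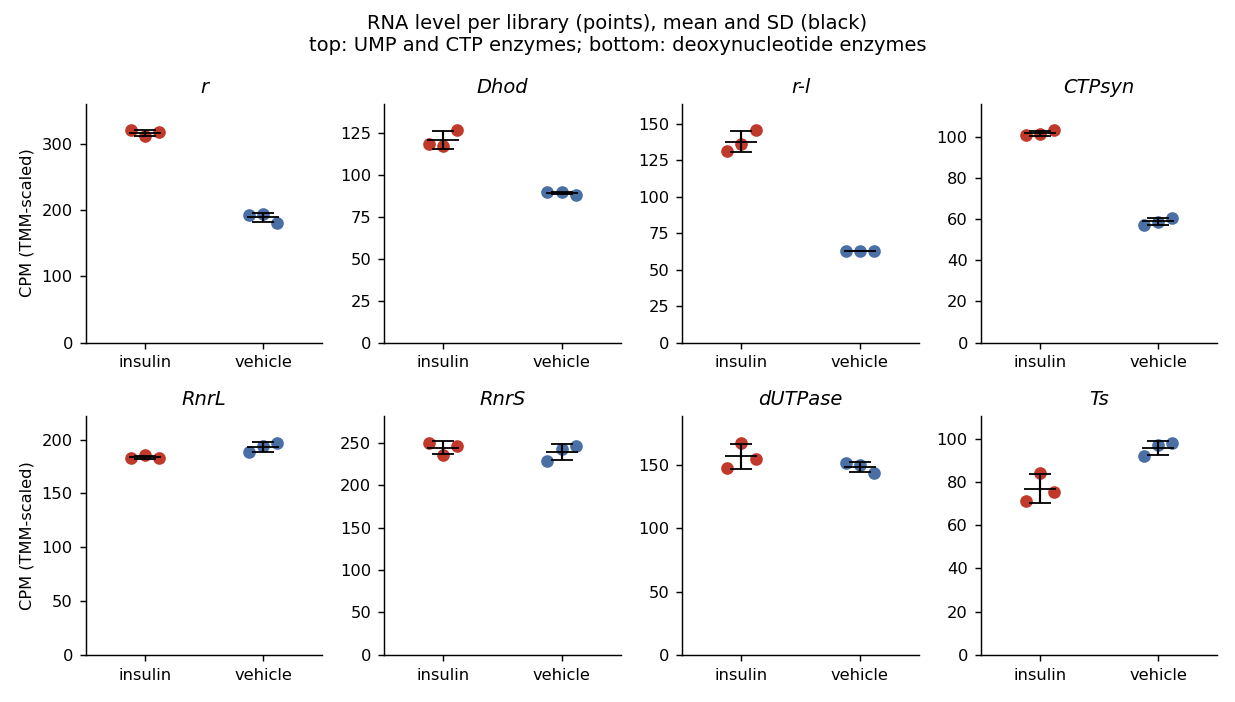
RNA level of each enzyme as CPM (counts scaled to a common library size by TMM, y axis from 0) in the 3 insulin libraries (red, left) and the 3 vehicle libraries (blue, right), with mean and SD in black. In r, Dhod, r-l and CTPsyn every insulin library lies above every vehicle library, in Ts and RnrL every insulin library lies below, and in RnrS and dUTPase the groups overlap. RnrL had no call despite this, and the share of all genes tested without overlap is not given here.

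The first enzyme of the pathway, r, lies on chromosome X at 16655359-16668712 (plus strand, 3 transcripts) and combines carbamoyl phosphate synthetase, aspartate transcarbamylase and dihydroorotase in one protein. Its RNA measured 321, 313 and 318 CPM in the insulin libraries, against 193, 194 and 181 CPM in the vehicle libraries. The insulin libraries were all higher, and the gap was many times the spread within either treatment. The means were 317 ± 4.19 CPM after insulin and 190 ± 7.10 CPM after vehicle (SD, n = 3 each). The log2 fold change was 0.74 ± 0.04 (SE; 95% interval 0.67 to 0.82), with an adjusted p of 1.1e-21 by edgeR, and 336 of the genes tested had a larger rise.

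Dhod, at 3R 8651391-8652916 on the minus strand, encodes the only enzyme of the pathway that sits in the mitochondrion, where it passes electrons to ubiquinone. It measured 118, 118 and 127 CPM in the insulin libraries, against 89.8, 89.8 and 88.4 CPM in the vehicle libraries, with no overlap. The means were 121 ± 5.14 and 89.3 ± 0.84 CPM (SD, n = 3 each) for insulin and vehicle. Its log2 fold change of 0.44 ± 0.04 (SE; interval 0.35 to 0.53; edgeR adjusted p = 2.0e-11) was the smallest among the UMP and CTP enzymes.

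The last enzyme, r-l, at 3R 21070557-21073319 on the minus strand, joins orotate phosphoribosyltransferase and orotidylate decarboxylase. It measured 132, 136 and 146 CPM in the insulin libraries, against 63.1, 62.9 and 62.6 CPM in the vehicle libraries. The vehicle libraries were nearly identical, and every insulin library lay far above them, by 2.19 fold between the fitted levels. The log2 fold change was 1.13 ± 0.05 (SE; interval 1.04 to 1.22; edgeR adjusted p = 4.6e-24), and 57 of the genes tested had a larger rise. Its rise was larger than that of Dhod, with intervals that do not overlap. Within each library the r-l count was 1.11, 1.16 and 1.15 times that of Dhod after insulin and 0.702, 0.701 and 0.709 times after vehicle, a log2 difference of 0.69 in a ratio chosen after its values were seen.

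CTPsyn, at 3L 15097914-15113003 on the plus strand, measured 101, 101 and 103 CPM in the insulin libraries, against 57.5, 58.8 and 60.6 CPM in the vehicle libraries. Both groups were tight and well apart. Its log2 fold change was 0.79 ± 0.05 (SE; interval 0.69 to 0.88; edgeR adjusted p = 5.5e-18), close to that of r, and the profiles of r and CTPsyn over the 6 libraries were the nearest of the 28 pairs of members, with a root mean square difference of 0.0587 in centred log2 CPM. Of its exon bases 13.2% (399 bp) are shared with CG45071, a gene on the same strand that averaged 17.0 CPM after insulin and 22.8 CPM after vehicle, lower by a log2 change of -0.41 (edgeR adjusted p = 2.8e-04), opposite to CTPsyn.

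RnrL, at 2L 10325026-10327943 on the minus strand, measured 183, 185 and 182 CPM in the insulin libraries, against 188, 194 and 197 CPM in the vehicle libraries. The groups did not overlap, but the gap was small. Its log2 fold change was -0.08 ± 0.04 (SE; interval -0.15 to -0.00), which missed the threshold with an edgeR adjusted p of 0.0871 and passed it under total-count scaling (-0.12, adjusted p = 0.014) and without vehicle library X1 (-0.10, adjusted p = 0.045).

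RnrS, the partner subunit, lies on 2R at 11983145-11985393 on the minus strand. It measured 250, 235 and 246 CPM in the insulin libraries, against 228, 243 and 247 CPM in the vehicle libraries, and the groups overlapped. The log2 fold change was 0.03 ± 0.04 (SE; interval -0.05 to 0.10; edgeR adjusted p = 0.562), and its sign turned under total-count scaling and without vehicle library X1, at -0.02 and -0.01. The interval leaves room for a change of up to 0.10 on the log2 scale upward and 0.05 downward. The counts of RnrL per RnrS count were 0.730, 0.787 and 0.741 in the insulin libraries and 0.825, 0.800 and 0.800 in the vehicle libraries. The ratio was lower in all 3 insulin libraries, by a log2 difference of -0.10, with an exact two-sided permutation p of 0.1, the smallest that 3 against 3 libraries can give.

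The dUTPase gene, at 2L 11011312-11012135 on the plus strand, measured 148, 168 and 155 CPM in the insulin libraries, against 151, 151 and 144 CPM in the vehicle libraries. The groups overlapped, since insulin library X4 lay below vehicle libraries X1 and X2. Its log2 fold change was 0.08 ± 0.04 (SE; interval -0.01 to 0.16; edgeR adjusted p = 0.142), with 0.12 and an adjusted p of 0.031 without insulin library X4, 0.03 and 0.604 without insulin library X5, and 0.03 and 0.612 under total-count scaling. All exon bases of dUTPase lie under CR45778, a long noncoding RNA gene on the opposite strand. CR45778 had 1.10, 1.07 and 1.06 counts for each dUTPase count in the insulin libraries and 0.974, 1.09 and 1.08 in the vehicle libraries, and was called higher after insulin (log2 fold change 0.11, edgeR adjusted p = 0.029). Across the genome, 39 pairs of genes on opposite strands shared at least 60% of the exon bases of both and had at least 500 counts between them, summed over the libraries; their counts differed by a median of 1.16 times, and by less than 1.5 times in 34 of the 39. The authors counted reads by strand, but reads of a gene and of its antisense partner cannot be told apart in these values, so the level of dUTPase stands for the locus rather than for its mRNA alone.

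Ts, at 2L 2968293-2969638 on the minus strand, was the one member called lower. It measured 71.3, 84.2 and 75.3 CPM in the insulin libraries, against 92.2, 97.1 and 98.2 CPM in the vehicle libraries. Every insulin library was below every vehicle library, with insulin library X5 nearest to them. The log2 fold change was -0.32 ± 0.05 (SE; interval -0.43 to -0.22; edgeR adjusted p = 1.3e-06). In each library Ts had 0.482, 0.502 and 0.486 counts for each dUTPase count after insulin and 0.609, 0.645 and 0.681 after vehicle, a log2 difference of -0.40 between the enzyme that uses dUMP and the one that supplies it. That ratio was chosen after its values were seen and has the antisense limit of dUTPase.

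**Figure D2:**
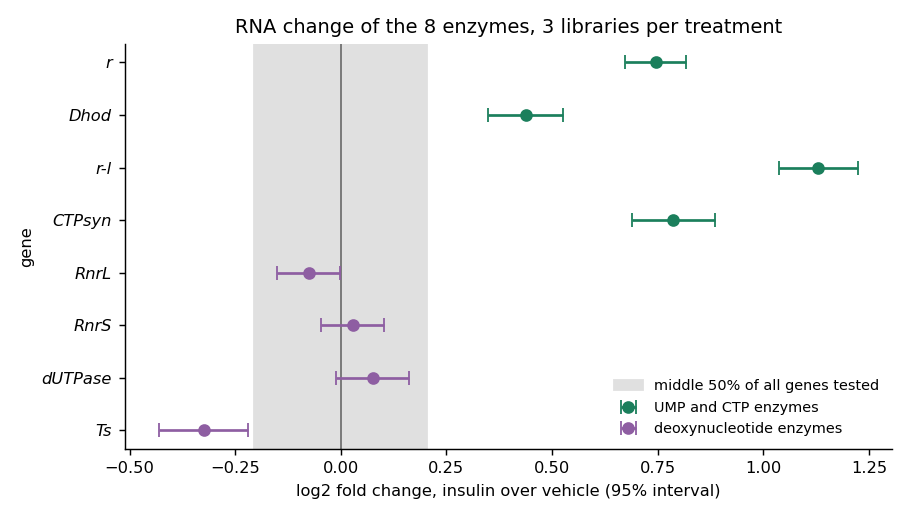
Log2 fold change of insulin over vehicle (x axis) for each enzyme, from edgeR with 95% intervals, for UMP and CTP enzymes (green) and deoxynucleotide enzymes (purple). The grey band spans the middle 50% of all 8683 genes tested, from -0.20 to 0.20; r, Dhod, r-l and CTPsyn lie above it, Ts below it and the other 3 inside it.

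Smaller overlaps touch exons of r-l, Dhod, Ts and CTPsyn. CTPsyn shares 154 bp (5.1% of its exon bases) with CR43971 on the opposite strand, at 4.49 and 5.01 CPM after insulin and vehicle. Of the exon bases of r-l, 9.5% (194 bp) are shared with AnxB9 on the opposite strand, which averaged 413 CPM after insulin and 401 CPM after vehicle (log2 fold change 0.04, edgeR adjusted p = 0.268). Dhod shares 103 bp with CG8021, at 13.3 and 11.7 CPM after insulin and vehicle, and 69 bp with CG11753, at 32.1 and 33.6 CPM, and Ts shares 142 bp with Rbp9, at 2.67 and 2.42 CPM. What part these reads have in the members' values was not tested.

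Per kilobase of exon sequence, so that genes of different length can be compared, dUTPase and RnrS had the highest levels in both treatments. The dUTPase level stands for the locus with CR45778, and its rank and the spans given below share that limit. The part of AnxB9 reads in the level of r-l was not tested. In insulin-exposed cells the order was dUTPase (190 ± 12.3 CPM per kb), RnrS (153 ± 4.84), Dhod (82.2 ± 3.49), RnrL (71.2 ± 0.60), r-l (67.6 ± 3.55), Ts (57.2 ± 4.93), r (44.5 ± 0.59) and CTPsyn (33.7 ± 0.45; all SD, n = 3). In vehicle-exposed cells it was dUTPase (180 ± 4.77), RnrS (150 ± 6.03), RnrL (75.0 ± 1.73), Ts (71.2 ± 2.36), Dhod (60.7 ± 0.57), r-l (30.8 ± 0.11), r (26.6 ± 1.00) and CTPsyn (19.5 ± 0.53). Only RnrL and r-l overlapped as neighbours after insulin, and no neighbours did after vehicle. In vehicle-exposed cells all 4 deoxynucleotide enzymes stood above all 4 UMP and CTP enzymes. In insulin-exposed cells Dhod stood above RnrL and Ts, and r-l above Ts, and the highest level was 5.65 times the lowest, against 9.26 times after vehicle. RnrL had 0.451 to 0.487 of the level of RnrS per kb after insulin and 0.494 to 0.510 after vehicle.

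**Figure D3:**
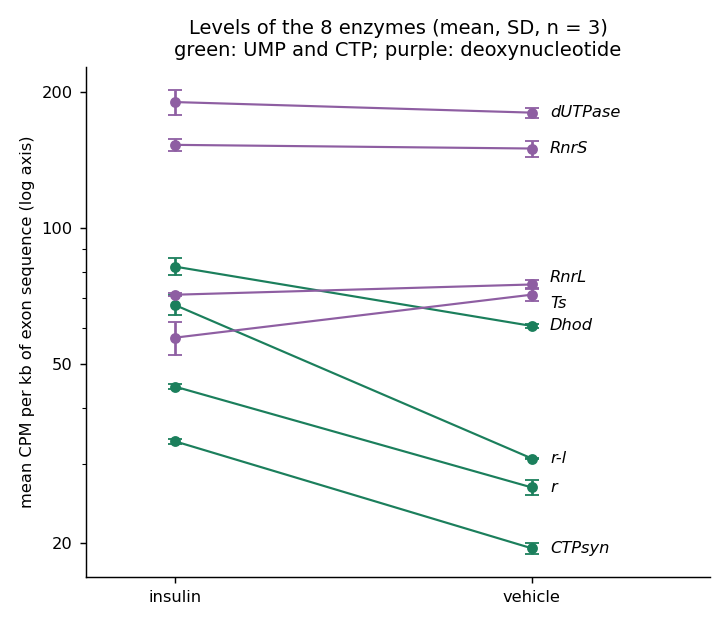
Mean CPM per kb of exon sequence (log axis) of each enzyme after insulin (left) and vehicle (right), with SD over 3 libraries, for UMP and CTP enzymes (green) and deoxynucleotide enzymes (purple). Dhod crosses RnrL and Ts, and r-l crosses Ts. From CTPsyn to dUTPase, the 8 levels span 5.65 fold after insulin and 9.26 fold after vehicle. The dUTPase level stands for the locus with its antisense gene CR45778.

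For each member, the gene with the nearest profile was taken as the one with the smallest root mean square difference of centred log2 CPM over the 6 libraries among the genes tested. For r it was AdSL, the adenylosuccinate lyase of purine synthesis, with a difference of 0.0357 and a log2 fold change of 0.80. For Dhod it was CG1516, a pyruvate carboxylase, at 0.0153, for r-l CG9799 at 0.0288 and for CTPsyn CG9143 at 0.0195. For RnrL it was l(1)G0193 at 0.0054, for RnrS CG4041 at 0.0179, for dUTPase CG3368 at 0.0243 and for Ts CYLD, a deubiquitinase, at 0.0263. With 6 libraries and 8683 genes, a near neighbour is easily had, and these are descriptions only.

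Beyond the members, 28 further genes of pyrimidine and deoxynucleotide metabolism were listed, of which 26 were tested. Of these, 10 rose, 7 fell and 9 had no call, beside 27.0% of all genes called higher and 23.1% lower, and their median log2 fold change was -0.05, against -0.01 over all genes. Total-count scaling called 11 lower. Nucleotide kinases rose in 3 of 6 genes and fell in 1. Both genes listed as salvage kinases rose, and of the 3 nucleoside transporters tested 1 rose and 1 fell. The deoxynucleoside kinase dnk, also a salvage enzyme, was listed with the nucleotide kinases. It had no call (log2 fold change -0.07, edgeR adjusted p = 0.165). Of the 4 folate cycle genes that supply or recycle the cofactor of Ts, 2 rose and none fell. Of the 4 deaminases 1 rose and 2 fell, and of the 6 genes of pyrimidine breakdown 3 fell and none rose. Rim2, a mitochondrial carrier of pyrimidine nucleotides, rose.

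The largest rise in the list was that of Nmdmc, the mitochondrial methylenetetrahydrofolate dehydrogenase and cyclohydrolase, at 151 CPM after insulin and 50.8 CPM after vehicle (log2 fold change 1.56 ± 0.05 SE). CG3011, the serine hydroxymethyltransferase that charges folate with a carbon unit, measured 573 CPM after insulin and 311 CPM after vehicle (0.88 ± 0.03). Both belong to the folate cycle on which Ts draws, while Ts itself was lower. The nucleoside diphosphate kinase awd, which makes UTP, CTP and deoxynucleoside triphosphates from their diphosphates, measured 995 CPM after insulin and 597 CPM after vehicle (0.74 ± 0.03).

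The 3 largest falls were in genes that deaminate or degrade pyrimidines. The next, in the nucleotide kinase nmdyn-D7, was close behind (log2 fold change -0.43 ± 0.10 SE, edgeR adjusted p = 5.4e-04). CG8349, a cytidine deaminase family member, averaged 3.34 CPM after insulin and 5.66 CPM after vehicle (log2 fold change -0.76 ± 0.20 SE). CG6330, of the uridine phosphorylase family, averaged 99.9 CPM after insulin and 157 CPM after vehicle (-0.66 ± 0.04). CG8353, beside CG8349 in name and family, averaged 4.90 and 6.46 CPM for insulin and vehicle (-0.45 ± 0.19), with an edgeR adjusted p of 0.042 that was lost in DESeq2 (0.197) and without library X1, X3, X4 or X5 (0.059 to 0.389).

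Purine synthesis genes served for comparison with the UMP branch. Of 9 listed, 8 were tested and all 8 rose, where 27.0% of all genes did, with a median log2 fold change of 0.52, beside 0.74 for the 3 UMP genes. The largest rises were those of ras, the IMP dehydrogenase (139 CPM after insulin, 67.4 CPM after vehicle; 1.04 ± 0.05), AdSL (102 and 58.5 CPM; 0.80 ± 0.05) and ade3, which carries several early steps (252 and 153 CPM; 0.72 ± 0.04). A list of S phase and replication genes, the company of the deoxynucleotide enzymes, gave another picture. It also holds stg, a phosphatase of the cell cycle rather than of replication itself. Of 31 tested, 4 rose, 13 fell and 14 had no call, beside 27.0% of all genes higher and 23.1% lower, with a median log2 fold change of -0.09, beside -0.02 for the 4 deoxynucleotide enzymes. The rises were small, led by the Cdc25 phosphatase stg (0.20 ± 0.04), the replication licensing inhibitor geminin (0.17 ± 0.05) and the E2F partner Dp (0.15 ± 0.04). The largest falls were DNA-ligI, the replicative ligase (-0.39 ± 0.07), DNApol-alpha50, a primase subunit (-0.38 ± 0.12), and DNApol-epsilon255, a polymerase subunit (-0.30 ± 0.04). The call of geminin was lost under total-count scaling (adjusted p = 0.054), in DESeq2 (0.070) and without X1, X5 or X6 (0.063 to 0.188), with a log2 fold change of 0.08 without X1, and that of DNApol-alpha50 was lost in DESeq2 (0.055). DESeq2 called 2 of the 31 higher and 7 lower, and 2 were higher under total-count scaling and without vehicle library X1 or insulin library X6.

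**Figure D4:**
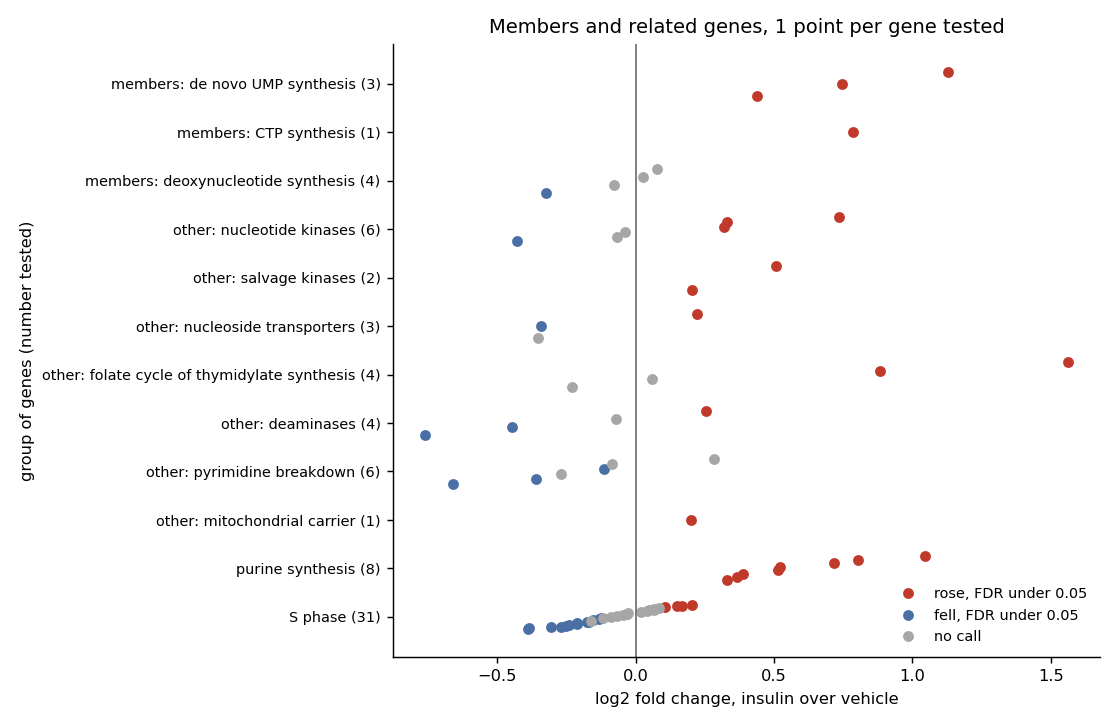
Log2 fold change of insulin over vehicle (x axis) for each gene tested, 1 point a gene, in the members and the related lists (rows, with the number tested), coloured by the edgeR call at an FDR under 0.05. All 8 purine genes and the 4 UMP and CTP members lie to the right. The 31 genes of the S phase list lie near 0, from -0.39 to 0.20. Nmdmc, in the folate row, is farthest right at 1.56.

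ATAC-seq peaks were called by the authors on the 3 samples of each treatment together, 9726 for insulin and 9560 for vehicle, so peak extents carry no replicate spread and are given without a test. Of the 8 members, 6 had a peak with their gene identifier and RnrL and dUTPase had none. Of the 7 such peaks, 6 were annotated within 1 kb of a start, and the second r-l peak lay beyond it. All 7 were in both lists, also where the merged peak and the list peak each had to share 50% of their length. Insulin and vehicle peaks were not matched to each other by this rule. The share of all 10269 merged peaks in both lists is not given here, so this does not set the members apart. The authors' mean count over all 6 libraries was 202 for the r peak, 417 for Dhod, 253 for r-l, 176 for CTPsyn, 295 for RnrS and 466 for Ts, against a median of 263 over the 6066 proximal promoter peaks. These counts grow with peak width. Per kb of peak the mean counts were 256 for r, 342 for Dhod and 320 for the r-l peak at its start. They were 284 for CTPsyn, 317 for RnrS and 276 for Ts. Among these 6 peaks Dhod was first, and Ts, with the widest peak, was below all but r. The second r-l peak, with a mean count of 174, had 370 per kb, above Dhod. Per kb, the 6 peaks stood low to middling among proximal promoter peaks. Their percentiles were 2.46 for r, 40.8 for Dhod, 27.9 for r-l, 9.79 for CTPsyn, 26.0 for RnrS and 7.12 for Ts.

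The merged peaks lay at X 16655351-16656140 for r, 3R 8652571-8653790 for Dhod, 3R 21072621-21073410 and 21071191-21071660 for r-l, 3L 15098111-15098730 for CTPsyn, 2R 11984561-11985490 for RnrS and 2L 2968751-2970440 for Ts (dm6). The r peak was 450 bp wide in the insulin list, where it began 232 bp inside the gene, and 790 bp wide in the vehicle list, where it covered the start, and r had more RNA after insulin. The Ts peak was 1200 bp wide in the insulin list and 1410 bp in the vehicle list, and reached 802 bp before the start in the insulin list and 522 bp in the vehicle list. The RnrS peak began 7 bp before the start in the insulin list and 97 bp before it in the vehicle list, so that the E2F letters lay under the vehicle peak alone. For r-l the start peak was 790 bp wide in the insulin list and 700 bp in the vehicle list. Of the 7 peaks, 5 were wider in the vehicle list and 2 in the insulin list. Over the 4454 proximal promoter peaks with 1 peak in each list, 65.8% were wider in the vehicle list and 29.7% in the insulin list, so the members' split is near that of proximal peaks at large.

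**Figure D5:**
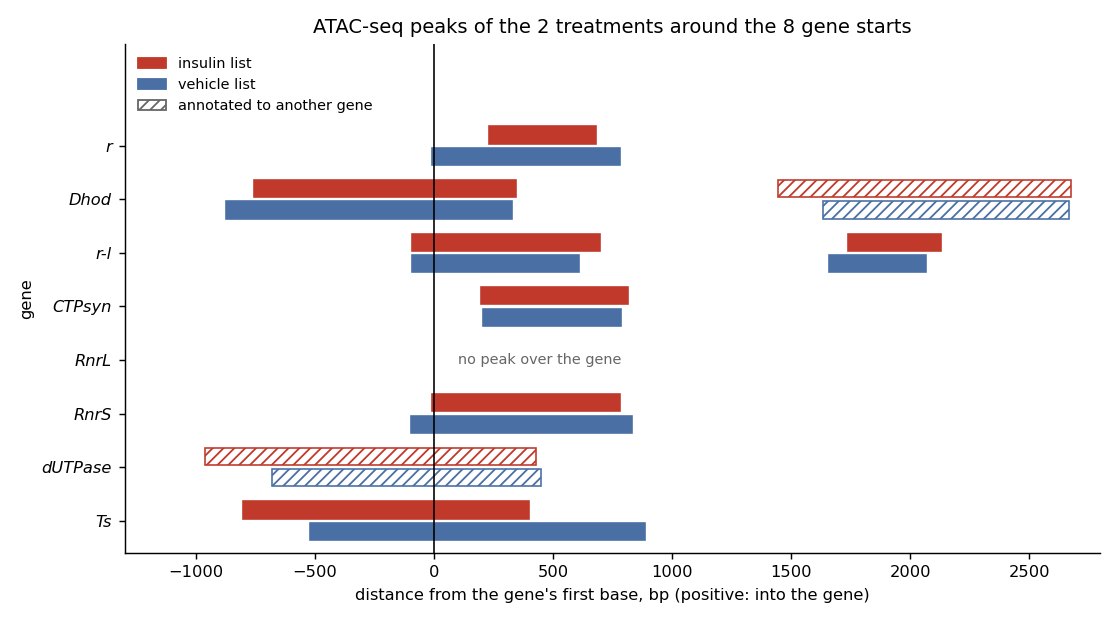
Extents of peaks in the insulin list (red, upper bar) and vehicle list (blue, lower bar) around the first base of each gene, in bp along the direction of transcription, with hatched bars for peaks annotated to another gene. The r peak covers the start in the vehicle list alone, CTPsyn peaks begin 197 and 207 bp inside the gene, dUTPase lies under a peak annotated to Art8, and RnrL has none.

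The CTPsyn peak lay inside the gene in both lists, and began 197 bp inside the gene in the insulin list and 207 bp in the vehicle list. A further 4 merged peaks lay over CTPsyn and were annotated to genes within it or overlapping it. In order along the gene, their counts per kb stood at percentiles 67.4, 62.7, 95.5 and 93.2 of proximal promoter peaks. Dhod was overlapped by 1 further peak annotated to another gene, at percentile 14.0. The start of dUTPase lay under a peak at 2L 11010351-11011760 with a mean count of 389, which the annotation assigns to Art8, a protein arginine methyltransferase gene that begins beside dUTPase and runs the other way. Art8 rose (34.8 CPM after insulin and 27.2 CPM after vehicle; log2 fold change 0.35 ± 0.09 SE, edgeR adjusted p = 0.0012), with no call for dUTPase. The DREs of dUTPase lie under this peak in both lists. The Dhod peak likewise covers the start of CG11753, which had no call (log2 fold change -0.07 ± 0.08).

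RnrL stood apart: the nearest peak, at 2L 10333611-10335350 and annotated to GATAd, began 5668 bp from its start, and its E2F letters lay under no peak in either list. Of the 951 protein-coding genes with a mean CPM at or above that of RnrL, 802 (84.3%) had a peak over the gene start and 27 (2.84%) were at least as far from any peak. RnrL was thus well expressed, at the 87.7th percentile of genes by mean CPM, with no called peak at its start under the authors' settings.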

How the data were processed

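RNA-seq and ATAC-seq were performed on 3 insulin and 3 vehicle samples each. For RNA-seq the authors used STAR on BDGP6 and deposited raw counts per gene from featureCounts, counted by strand, with no normalization. For ATAC-seq they used Novoalign on dm6 and called peaks jointly for the 3 samples sharing a treatment. The deposited peak lists carry a score for each peak, used here only to rank peaks, and no rank is reported. Peaks were matched by position. The authors' deposited annotation of merged peaks, made with ChIPseeker, gives a mean normalized signal per peak over all 6 libraries (their mean count), with no value per sample used here. The authors' own fold changes and p-values, and 12 further columns of normalized or transformed values per sample, were not used. For the authors' tools named here, versions are not given in the sources used.

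Counts were scaled by TMM and tested with edgeR 4.0.16 (R 4.3.3; quasi-likelihood test, robust fit, filterByExpr, Benjamini-Hochberg adjustment over all 8683 genes tested, FDR < 0.05), in which a member's lowest library count was 477. The fit was checked on simulated counts. Alternatives were DESeq2 1.42.0, its size factors in edgeR, total counts, no filter, and each library left out. Profiles used log2 CPM with a prior count of 2, and overlaps of peaks needed 1 bp. Gene positions, exon lengths and transcripts came from the Ensembl annotation of BDGP6, and sequences from the RefSeq copy of the Release 6 genome; both have the coordinates of dm6. The comparison of antisense pairs was chosen after the data were seen. The text names all 8 members, and up to 3 of the largest rises and 3 of the largest falls at FDR < 0.05 in each related list. It also names the gene with the nearest profile to each member. Art8, nmdyn-D7, dnk and genes overlapping a member were added after their values were seen. The members and lists were chosen with earlier results of these data known. Python 3.11.15 with pandas 2.3.3 and scipy 1.17.1 was used for the rest.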

Additional observations from a re-analysis of the deposited data

How the results depend on the processing

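The rises of r, Dhod, r-l and CTPsyn and the fall of Ts kept their direction and stayed past the threshold under DESeq2, DESeq2 size factors, total counts, no filter and with each library left out. Without 1 library their log2 fold changes ranged from 0.72 to 0.76 for r, 0.40 to 0.46 for Dhod, 1.09 to 1.17 for r-l, 0.76 to 0.81 for CTPsyn and -0.39 to -0.26 for Ts. The small values moved: RnrS turned to -0.018 under total counts and ranged from -0.015 (without X1) to 0.056 (without X5) over the fits without 1 library, and it had no call in any setting. RnrL was called lower under total counts (-0.12, adjusted p = 0.014) and without X1 (-0.10, adjusted p = 0.045), with adjusted p from 0.014 to 0.262 over all alternatives, so the members called lower were 2 there and 1 or 2 over the fits without 1 library. The value of dUTPase ranged from 0.03 (without X5, and under total counts) to 0.12 (without X4, where it was called), so the members called higher were 4 or 5 over the fits without 1 library. Total counts shifted the median log2 fold change of all genes by -0.05, and called 1947 genes higher and 2475 lower, against 2342 and 2002 with TMM. Under total counts 11 rather than 7 of the other pyrimidine and deoxynucleotide genes were lower, and 2 rather than 4 of the S phase list higher. DESeq2 called 1861 genes higher and 1351 lower over all genes, and 2 genes of the S phase list higher and 7 lower. Without X1 or X6, 2 genes of the S phase list were higher. Without 1 library geminin ranged from 0.08 (without X1) to 0.22, with adjusted p from 0.002 to 0.188; its adjusted p was 0.054 under total counts, and in DESeq2 those of geminin and DNApol-alpha50 were 0.070 and 0.055. The cause of these changes was not tested. No paired analysis was possible because the columns of the count table carry a treatment but no replicate number. At 477 to 3124 counts per member and library, the 95% intervals of RnrL, RnrS and dUTPase reached from -0.15 to 0.16 on the log2 scale at their widest. The ATAC-seq files used here allow no replicate error.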
